A study of Arabidopsis thaliana with 6 samples.

Results

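The jacalin-type lectins and the beta-glucosidases of the BGLU family were compared between whole seedlings of the Arabidopsis thaliana splicing mutant prp8a-14 and of its wild type. The 53 genes were chosen by name and description: a symbol made of JAL or BGLU and a number, or a description that names jacalin or the mannose-binding lectin superfamily. They are 24 jacalin-type lectins and 29 BGLU genes among 19807 genes measured, and 4 of the lectins (AT1G52100, AT1G60095, AT1G60110 and AT5G38540) were found by description only. Although no value enters that rule, the families were proposed with the changes between these genotypes in view, so the changes below are a description and support no claim about the families as groups. The mutant carries the prp8a-14 allele of PRP8A, a core component of the splicing machinery, in the Col-0 ecotype, and the reference is wild type Col-0. Both genotypes have 3 libraries, numbered 4 to 6 in prp8a-14 and 1 to 3 in wild type, of poly-A selected RNA from seedlings 8 days old in continuous light. The design text calls the libraries biological replicates, and the labels do not say whether prp8a-14 was backcrossed or how the plants of a library were pooled. Levels are CPM, read counts scaled to a common library size chosen by the authors.

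Jacalin domains fold into a compact barrel that binds sugars, and in the mustard family many of these lectins attach to beta-glucosidases or to myrosinases, the thioglucosidases that split glucosinolates. Beta-glucosidases release the sugar from stored glucosides, and so set free defence compounds, coumarins, lignin precursors or hormones. In Arabidopsis seedlings and roots the best known pair is PYK10, the enzyme encoded by BGLU23, with its binding lectins: PYK10 is stored in ER bodies, spindle-shaped compartments of the endoplasmic reticulum, and meets cytosolic lectins when the cell is broken.

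Enzymes of the ER body carry a retrieval tail of the KDEL type at the end of the protein, which keeps them in the endoplasmic reticulum. The ends of 7 coding sequences are shown because the tail separates the ER body enzymes from their relatives. They are the last 30 coding bases, 5′ to 3′ on the coding strand, from the RefSeq annotation of assembly TAIR10.1, and capitals mark the 4 codons before the stop codon. No source used here names the authors' genome build, so genes are placed by chromosome and order only.
BGLU23, chromosome 3: ccatccgcgctcaagAAGGATGAGCTTtaa
BGLU22, chromosome 1: ccatccgcgctcaagAAGGATGAGCTTtaa
BGLU21, chromosome 1: ccatccgcactcaagAGGGATGAGCTTtaa
BGLU24, chromosome 5: ccatccgctatcaagAAGGATGAGCTTtga
BGLU18, chromosome 1: ccaacctccaagctgAGGGAAGAACTCtag
BGLU19, chromosome 3: aagtcctcaaagctaCACGAGGAGCTCtga
BGLU25, chromosome 3: gtagattcggattcaAGGAAAGAGTTAtaa
BGLU23 and BGLU22 share all of these bases. The first 6 genes match the retrieval pattern, whereas BGLU25, whose coding sequence is closest to BGLU19 (65.7% identical over the aligned part), does not.

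Among all genes, 35.2% were called different at an adjusted p under 0.05 (limma across the whole table, Benjamini-Hochberg), 17.9% higher and 17.3% lower in prp8a-14. Among the 53 family genes 32 were called, 12 higher and 20 lower. The lectins split evenly, with 8 that rose, 8 that fell and 8 not called, and their median log2 change was -0.06. The BGLU genes comprised 4 that rose, 12 that fell and 13 not called, with a median log2 change of -0.21, against 0.0037 over all genes. Changes of at least 2-fold, called in 2.33% of all genes, were found in 12 family genes, 6 in each direction: 5 lectins rose and 2 fell by that much, as did 1 and 4 BGLU genes. When libraries were scaled by their total counts instead, 7 lectins were called higher and 10 lower, as were 4 and 14 BGLU genes. That scaling also left 26.5% of the called genes of the whole table on the higher side, against 50.8% with the authors' sizes. All 53 had reads in every library, 50 with a mean of at least 1 CPM and 41 with at least 5 CPM.

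**Figure D1:**
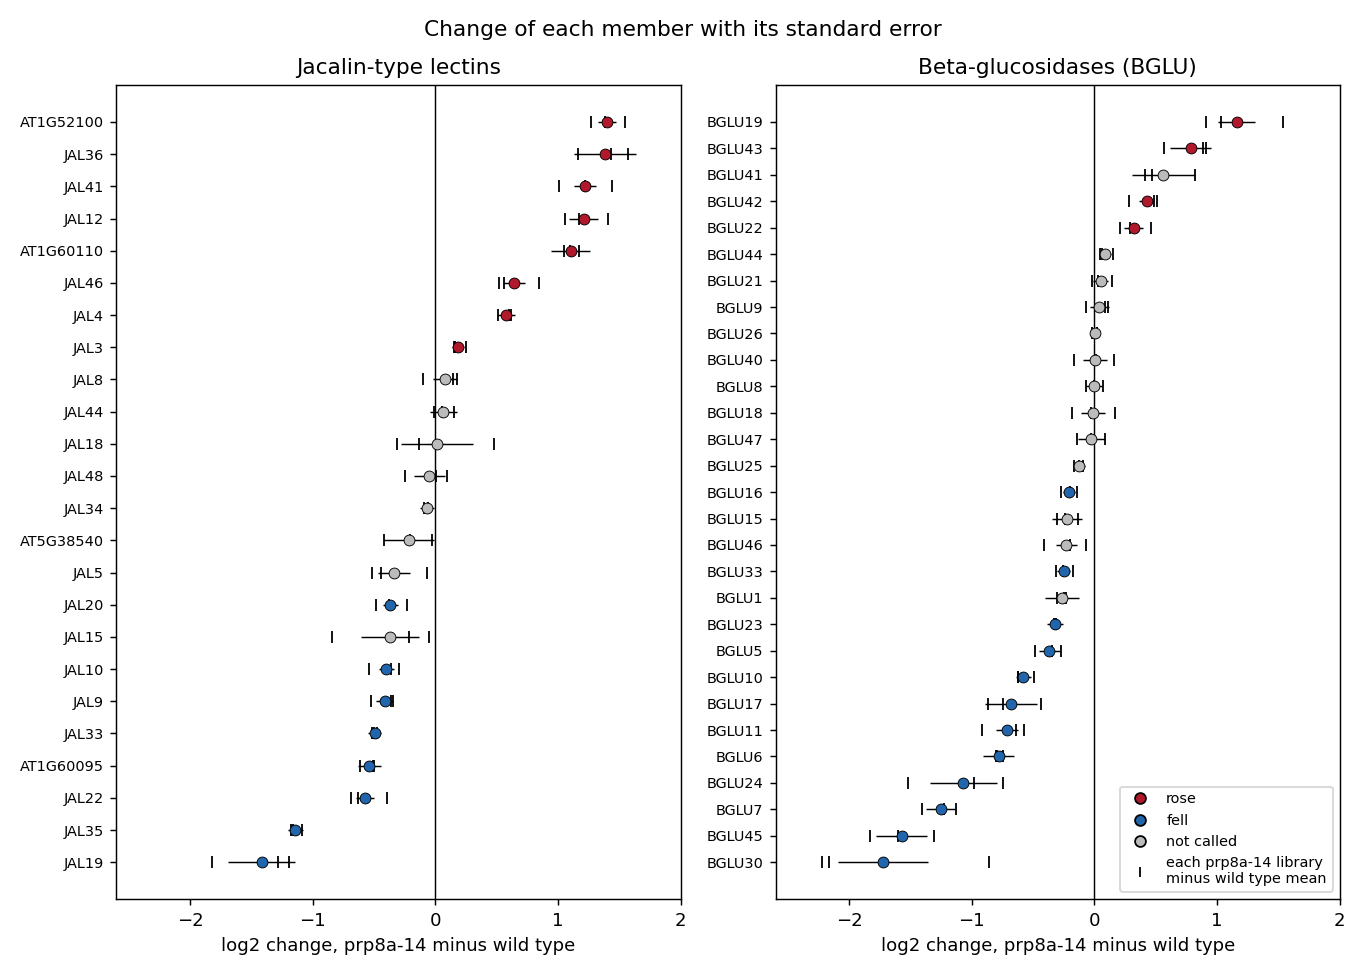
Log2 change, prp8a-14 minus wild type, of the 24 jacalin-type lectins (left) and the 29 BGLU genes (right), with points at the fitted change, horizontal bars for its standard error and ticks for each prp8a-14 library minus the wild type mean. Lectins run from AT1G52100 at 1.40 to JAL19 at -1.42 and BGLU genes from BGLU19 at 1.16 to BGLU30 at -1.72. Red and blue points were called higher and lower, and grey points were not called.

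A single gene carried most of the BGLU reads. BGLU23, which encodes PYK10, stood at 2447, 2469.5 and 2473 CPM in prp8a-14 and at 3158, 3218 and 2879.6 CPM in wild type. All 3 mutant libraries lay below all 3 wild type libraries, and the log2 change was -0.32 (SE 0.06), or -0.63 with quantile normalization. Its share of the BGLU reads was 58.7% to 59.8% in prp8a-14 and 64.0% to 66.3% in wild type. The summed BGLU level was 4167 ± 44.1 CPM in prp8a-14 and 4731 ± 219 CPM in wild type (SD, n = 3 each). Without BGLU23 the sums were 1704 ± 42.7 CPM in prp8a-14 and 1645 ± 58.1 CPM in wild type, so the total was not lower at the authors' library sizes. On that scale all genes together summed to 1036620 CPM in prp8a-14 and 970353 CPM in wild type, so this order depends on the scaling. Per kilobase of transcript BGLU23 was also the highest family gene, with 1364 CPM per kb in prp8a-14 and 1708 CPM per kb in wild type.

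The other enzymes with a retrieval tail varied. BGLU22, a scopolin-splitting enzyme of roots, had 348, 329.7 and 391 CPM in prp8a-14 and 257, 314 and 286 CPM in wild type, and rose (log2 change 0.32, SE 0.08). All mutant libraries lay above all wild type libraries, although the call was lost in limma without an intensity trend. Its neighbour BGLU21, of the same activity, had 449, 435 and 487 CPM in prp8a-14 and 407, 473 and 444 CPM in wild type, and the groups overlapped. BGLU18, the wound-inducible enzyme that releases abscisic acid from its glucose ester, was also not called, with 26.7 to 33.9 CPM in prp8a-14 and 26.0 to 33.3 CPM in wild type. BGLU19 was low and rose: 10.6, 7.41 and 6.83 CPM in prp8a-14 and 3.65, 3.57 and 3.66 CPM in wild type (log2 change 1.16, SE 0.15). BGLU24 lay at the other end, with 0.760, 0.445 and 0.646 CPM in prp8a-14 and 1.32, 1.18 and 1.33 CPM in wild type (log2 change -1.07, SE 0.27), and all mutant libraries were the lower. Of the 6 genes with a retrieval tail, then, 2 rose, 2 fell and 2 were not called. BGLU25, which lacks the tail, had 34.1 to 35.9 CPM in prp8a-14 and 36.6 to 39.4 CPM in wild type and was not called.

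The genes that build the ER body fell or were not called. Of a list of 23 ER body and PYK10 complex genes, 21 were measured, 11 of them family genes. Among the 21, 4 rose, 9 fell and 8 were not called, against 17.9% higher and 17.3% lower over all genes. NAI1, the transcription factor required for ER bodies, had 20.8, 16.9 and 17.8 CPM in prp8a-14 and 23.7, 28.2 and 25.2 CPM in wild type, and fell by 0.48 on the log2 scale (SE 0.09). NAI2, the ER body protein that NAI1 controls, stood at 675, 684 and 702 CPM in prp8a-14 and at 664, 705 and 633 CPM in wild type and was not called, though quantile normalization placed it lower (-0.18) and called it. TSA1, a relative of NAI2 whose gene lies next to BGLU18, fell: 12.9, 12.1 and 11.5 CPM in prp8a-14 against 30.2, 32.1 and 27.9 CPM in wild type (log2 change -1.30, SE 0.07). The neighbouring BGLU18 had a log2 change of -0.01. MEB2, an ER body membrane protein, fell by 0.42 on the log2 scale (SE 0.09), while MEB1 was not called (0.09, SE 0.05).

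None of the lectins of the PYK10 complex rose: all 6 measured had a negative log2 change, and 4 of them were called lower. PBP1, the PYK10-binding protein, bears no JAL symbol in the table and so stands outside the 53 genes. It had 669.8, 591 and 611 CPM in prp8a-14 and 624, 679.8 and 624 CPM in wild type, with overlapping groups, and it was called lower with quantile normalization only (-0.25). JAL34 was the highest of the 24 chosen lectins per kilobase of transcript, at 329.5 CPM per kb in prp8a-14 and 346 CPM per kb in wild type. It had 899, 899 and 879.6 CPM in prp8a-14 and 896, 1006 and 907 CPM in wild type. It was not called, but quantile normalization (-0.35) and library totals (-0.16) each called it lower. JAL33 fell, with 113, 116 and 114 CPM in prp8a-14 and 154, 178 and 153 CPM in wild type (log2 change -0.49, SE 0.06). JAL22 had 88.9, 72.5 and 75.3 CPM in prp8a-14 and 122, 121 and 108 CPM in wild type (log2 change -0.57, SE 0.07). JAL35, a jasmonate-responsive lectin also known as JR1, fell to 56.5, 60.2 and 57.3 CPM in prp8a-14 against 135, 133 and 116 CPM in wild type (log2 change -1.14, SE 0.06). In each of JAL33, JAL22 and JAL35 the genotypes did not overlap. PBP2 fell as well (log2 change -0.39, SE 0.07), whereas GLL22 and GLL23, lipase-like proteins of the same complex, rose by 0.26 and 0.47 on the log2 scale (SE 0.06 and 0.05). The call of GLL22 was lost with quantile normalization (0.18), library totals (0.17) and limma without an intensity trend. A share and a sum were taken over the 24 chosen lectins only, without PBP1 and PBP2. Among these reads JAL34 made up 51.5% to 52.7% in prp8a-14 and 49.4% to 50.8% in wild type. The summed level of the 24 was 1706 ± 1.11 CPM in prp8a-14 and 1871 ± 95.3 CPM in wild type (SD, n = 3 each).

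**Figure D2:**
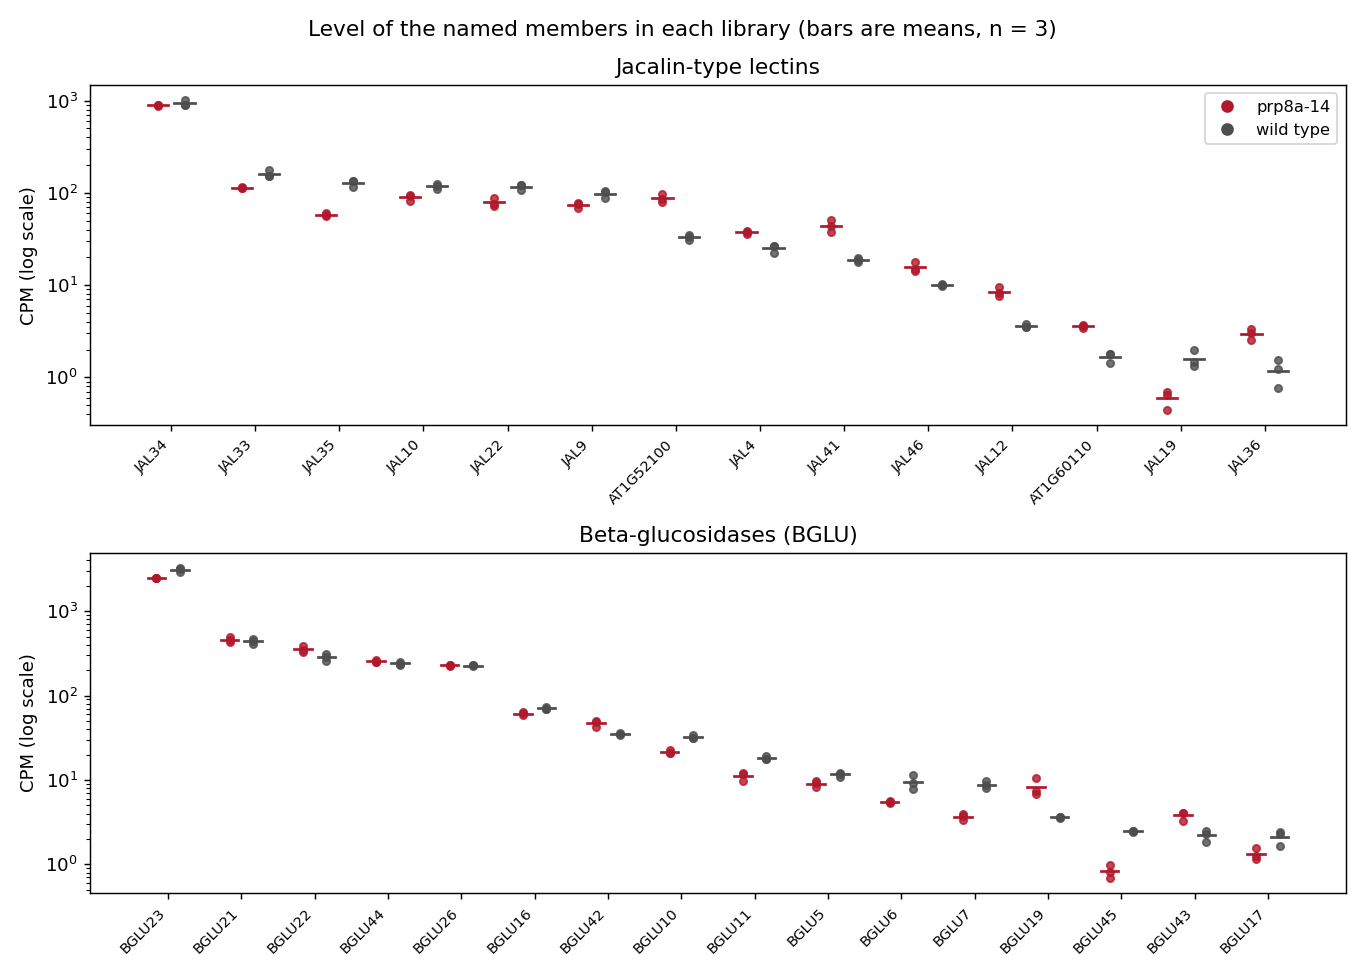
CPM on a log axis of the 14 lectins and 16 BGLU genes given with every library, in order of their wild type level, with prp8a-14 in red to the left of wild type in grey and a bar at each mean (n = 3). BGLU23 lies near 2463 CPM in prp8a-14 and 3085 CPM in wild type, and JAL34 near 892 CPM in prp8a-14 and 936 CPM in wild type. AT1G52100 and JAL35 separate the genotypes in opposite directions.

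The largest rises were among lectins of moderate or low level. AT1G52100 had 96.7, 86.1 and 79.4 CPM in prp8a-14 and 33.3, 35.3 and 30.6 CPM in wild type, a log2 change of 1.40 (SE 0.07). JAL41, its closest relative by coding sequence (78.6% identical), also rose, with 43.6, 37.7 and 50.7 CPM in prp8a-14 and 17.8, 19.7 and 18.7 CPM in wild type (log2 change 1.22, SE 0.09). These 2 genes lie on chromosomes 1 and 5, and in each the lowest mutant library was above the highest wild type library. JAL12 had 8.13, 7.54 and 9.57 CPM in prp8a-14 and 3.78, 3.55 and 3.50 CPM in wild type (log2 change 1.21, SE 0.12). JAL36 had 3.37, 2.54 and 3.05 CPM in prp8a-14 and 1.23, 1.55 and 0.761 CPM in wild type (log2 change 1.38, SE 0.25), and again the groups did not overlap. It lies on chromosome 3 beside BGLU19, which rose too, with 1 gene between them that was not analysed here and the pair transcribed away from each other. JAL46 and JAL4 rose by less: JAL46 had 14.8, 18.0 and 14.3 CPM in prp8a-14 and 10.3, 9.99 and 9.80 CPM in wild type (0.64, SE 0.09). JAL4, the only one of the lectins with 5 jacalin domains, had 35.6, 37.8 and 38.3 CPM in prp8a-14 and 26.4, 22.1 and 26.5 CPM in wild type (0.58, SE 0.07). JAL3 was 0.18 higher (SE 0.05), a call lost with library totals, in limma without an intensity trend, and without wild type library 2.

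At the low end JAL19, which has a single jacalin domain, had 0.688, 0.445 and 0.646 CPM in prp8a-14 and 1.46, 2.01 and 1.33 CPM in wild type (log2 change -1.42, SE 0.28). Its lowest library held 21 reads. Of the remaining lectins, JAL20 and AT1G60095 fell by 0.37 and 0.54 on the log2 scale (SE 0.06 and 0.09). JAL5, JAL8, JAL15, JAL18, JAL44, JAL48 and AT5G38540 were not called, with log2 changes from -0.37 to 0.08. By jacalin domain number, 1 of 2 lectins with 1 domain fell and 3 of 4 with 2 domains fell, while none of either rose. The 10 with 3 domains comprised 5 that rose, 3 that fell and 2 not called, the 7 with 4 domains 2 that rose, 1 that fell and 4 not called, and JAL4 rose.

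Calls were also set beside gene order. Family genes with at most 5 other genes between them formed 13 clusters holding 33 genes. In 10 clusters the calls differed, mostly because 1 gene was called and another was not. With 8 lectins higher, 8 lower and 8 not called, and 4, 12 and 13 BGLU genes, differing calls are common wherever the genes lie. That count therefore cannot be read as a trait of neighbours, and no share for genes lying apart was computed. Both directions occurred in 2 clusters, each of lectins on chromosome 1, and in none of the 8 BGLU clusters. In the larger, JAL9 and JAL10 fell while AT1G52100 and JAL12, farther along the array on the same strand, rose. JAL9 had 67.8, 76.0 and 77.0 CPM in prp8a-14 and 87.7, 104 and 102 CPM in wild type (log2 change -0.41, SE 0.07). JAL10 had 80.8, 91.5 and 95.9 CPM in prp8a-14 and 111, 124 and 118 CPM in wild type (-0.40, SE 0.06), so neither pair of groups overlapped. JAL5 and JAL8, at the start of the array, were not called. AT1G52080, a gene of another kind between the falling and the rising lectins, had a log2 change of 0.01 and was not called.

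Short motifs were counted around the transcript starts of the same RefSeq annotation. In windows from 250 bases before to 50 after the start, searched on both strands, TATAAA was found in 17 of 24 lectins and 13 of 29 BGLU genes, against 52.1% of 27443 genes. The G-box CACGTG was found in 1 lectin and 3 BGLU genes (7.68% of all), the E-box CANNTG, which includes every G-box, in 15 and 16 (61.7%), and the W-box core TTGAC in 14 and 14 (50.5%).

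In the second mixed cluster AT1G60110 had 3.57, 3.45 and 3.74 CPM in prp8a-14 and 1.42, 1.81 and 1.79 CPM in wild type (log2 change 1.10, SE 0.16), beside AT1G60095, which fell, and JAL18, which was not called. The chromosome 3 array holds JAL33, JAL34 and JAL35 next to PBP1 and PBP2 and to NSP1, NSP3 and NSP4, nitrile-specifier proteins that carry jacalin domains themselves. All the genes called there were lower in prp8a-14, and PBP1 and JAL34, which had the highest levels per kilobase there, were the 2 not called.

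**Figure D3:**
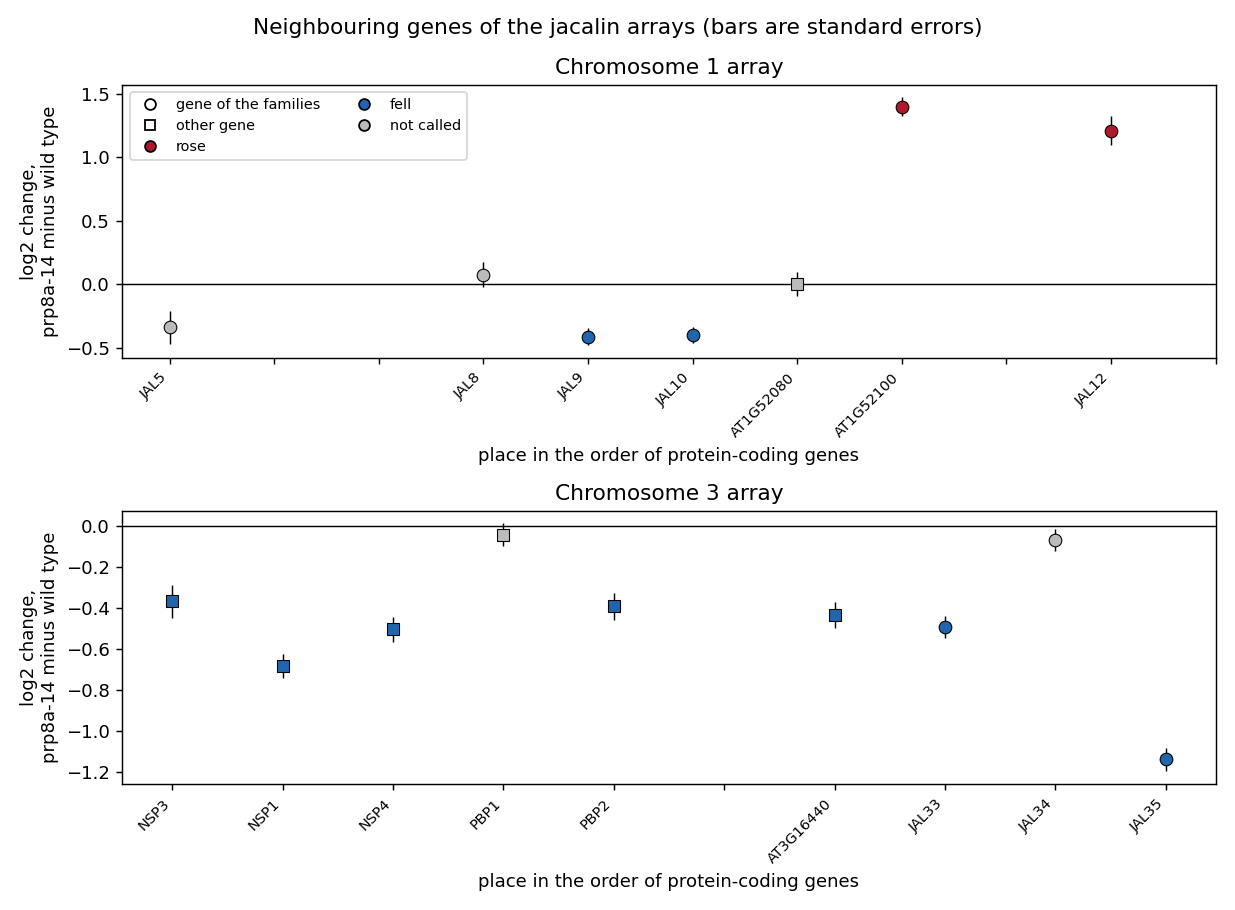
Log2 change, prp8a-14 minus wild type, with standard error along the order of protein-coding genes in the arrays of chromosomes 1 (top) and 3 (bottom). Circles are genes among the 53 chosen by name or description, and squares are other genes. Squares on chromosome 3 include PBP1 and PBP2, which carry 2 jacalin domains each. Another is AT3G16440, the closest coding sequence to JAL33, which fell (-0.44). Places without a name are genes not analysed here. On chromosome 1, JAL9 at -0.41 and AT1G52100 at 1.40 have opposite signs, and on chromosome 3 the called genes run from NSP3 at -0.37 to JAL35 at -1.14, with PBP1 and JAL34 not called.

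Several BGLU genes stand in pairs of close copies, and reads shared between copies make the split within a pair uncertain, since no source used here says how such reads were treated. BGLU10, which acts on the glucose ester of abscisic acid, had 22.9, 20.8 and 20.9 CPM in prp8a-14 and 33.8, 31.6 and 31.1 CPM in wild type (log2 change -0.58, SE 0.06). BGLU9, 93.6% identical in its coding sequence, was not called (0.04, SE 0.08). The ratio of BGLU10 to BGLU9 was 1.60, 1.31 and 1.29 in prp8a-14 and 2.07, 2.16 and 2.18 in wild type, without overlap. BGLU22 over BGLU21, 93.3% identical, was 0.774, 0.758 and 0.802 in prp8a-14 and 0.632, 0.664 and 0.644 in wild type. BGLU7 had 3.31, 3.75 and 4.00 CPM in prp8a-14 and 9.66, 8.06 and 8.69 CPM in wild type (log2 change -1.25, SE 0.12). Its copy BGLU8 was not called, with 51.2 to 56.4 CPM in prp8a-14 and 48.9 to 58.0 CPM in wild type. In each of these 3 pairs 1 gene was called and its copy was not, within the limit that shared reads set.

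BGLU45 and BGLU46 encode enzymes that split the glucosides of lignin precursors. BGLU45 had 0.814, 0.995 and 0.694 CPM in prp8a-14 and 2.40, 2.50 and 2.51 CPM in wild type (log2 change -1.57, SE 0.21), the lowest library at 43 reads. BGLU46, at the higher level, was not called (-0.23, SE 0.08), though 5 of the other settings called it lower. BGLU43 had 3.24, 4.11 and 4.04 CPM in prp8a-14 and 2.27, 2.48 and 1.86 CPM in wild type (0.78, SE 0.17), beside BGLU44, which was not called at 266, 249 and 248 CPM in prp8a-14 and 252, 239 and 228 CPM in wild type. BGLU5 and BGLU6 fell together: BGLU6 had 5.57, 5.38 and 5.41 CPM in prp8a-14 and 11.4, 7.83 and 9.18 CPM in wild type (-0.78, SE 0.13). In the reference annotation BGLU6 encodes 379 residues, against 500 for BGLU5. BGLU5 had 8.31, 9.65 and 9.14 CPM in prp8a-14 and 11.9, 11.0 and 12.1 CPM in wild type (-0.37, SE 0.09). Lectin pairs gave both outcomes, since JAL46 rose where JAL48 was not called, while the ratio of JAL9 to JAL10 overlapped between genotypes.

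**Figure D4:**
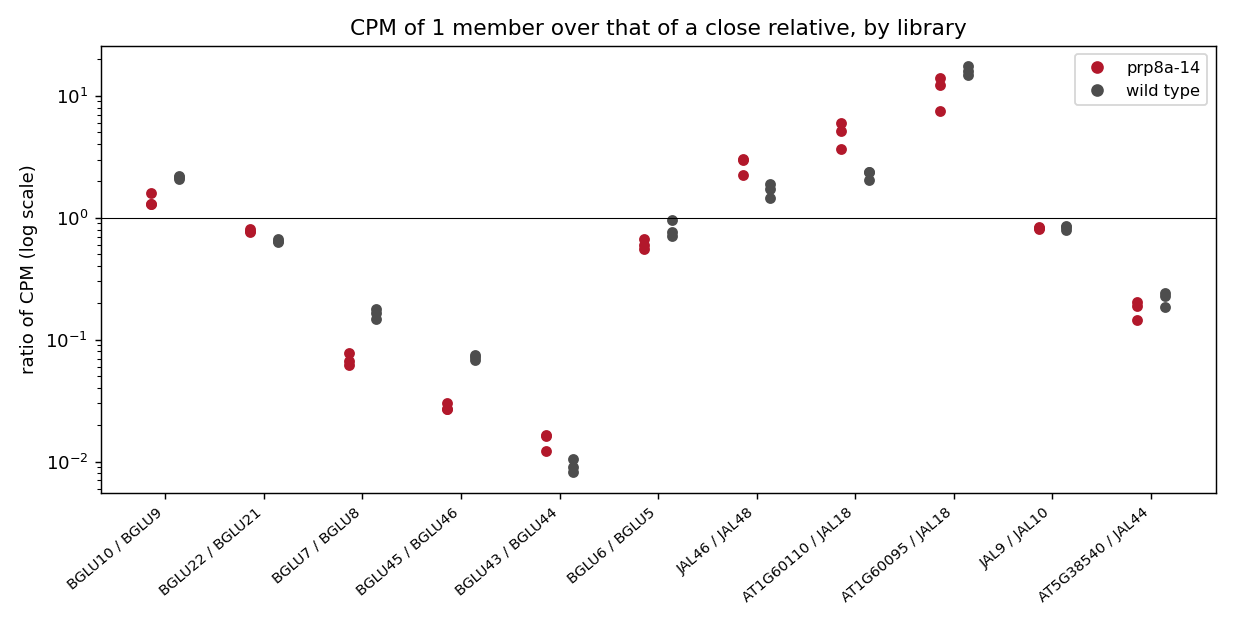
CPM of 1 gene over that of a close relative in each library, on a log axis, with prp8a-14 in red to the left of wild type in grey. The ratio of BGLU10 to BGLU9 is 1.29 to 1.60 in prp8a-14 and 2.07 to 2.18 in wild type, and JAL9 to JAL10 and AT5G38540 to JAL44 are the pairs whose groups overlap.

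Enzymes with known substrates elsewhere in the family also differed in their changes. BGLU42, which releases coumarins from root tissue, had 49.1, 42.4 and 49.9 CPM in prp8a-14 and 34.3, 35.6 and 35.1 CPM in wild type, and rose (log2 change 0.43, SE 0.06). Of the other 6 measured genes of a coumarin list, 3 rose and 2 fell, against 17.9% higher and 17.3% lower over all genes. MYB72, the transcription factor upstream of BGLU42 in roots, rose by 1.58 (SE 0.24), the exporter ABCG37 by 0.82 (SE 0.06) and the scopoletin-forming enzyme F6'H1 by 0.52 (SE 0.07). UGT71C1 fell by 0.59 (SE 0.08), all on the log2 scale. BGLU26, which encodes PEN2, the atypical myrosinase of penetration resistance, had 229.8, 229 and 223 CPM in prp8a-14 and 229, 228 and 222 CPM in wild type, and these ranges nearly coincide (log2 change 0.01, SE 0.04).

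Further down in level, BGLU11 had 12.2, 11.7 and 9.64 CPM in prp8a-14 and 19.2, 17.6 and 17.8 CPM in wild type (log2 change -0.71, SE 0.09), with no overlap. BGLU16 had 61.4, 64.0 and 58.2 CPM in prp8a-14 and 68.4, 74.1 and 69.3 CPM in wild type (-0.21, SE 0.05). BGLU33, which acts on the glucose ester of abscisic acid in the vacuole, fell by 0.25 on the log2 scale (SE 0.05). BGLU17 had 1.25, 1.55 and 1.15 CPM in prp8a-14 and 1.66, 2.31 and 2.39 CPM in wild type (-0.68, SE 0.21), and this call was lost in 5 settings, among them without prp8a-14 library 4 or 6 and without wild type library 2 or 3. BGLU30, the dark-inducible DIN2, had 0.308, 0.296 and 0.759 CPM in prp8a-14 and 1.59, 1.18 and 1.40 CPM in wild type. The log2 change of BGLU30 was -1.72 (SE 0.37), with only 14 reads in 1 library. Its pooled counts were 2.93-fold lower in prp8a-14 (exact 95% interval 2.26 to 3.84). That interval holds counting error only and leaves out the spread between libraries, so it is too narrow. BGLU1, BGLU15, BGLU40, BGLU41 and BGLU47 were not called, with log2 changes from -0.26 for BGLU1 to 0.56 for BGLU41.

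Myrosinases are close relatives of the beta-glucosidases and are partners of other jacalin lectins. Of 17 listed genes of glucosinolate breakdown 14 were measured, 2 rose and 8 fell, against 17.9% higher and 17.3% lower over all genes. TGG4 and TGG5, the root myrosinases, fell: TGG5 had 24.8, 29.0 and 24.6 CPM in prp8a-14 and 51.2, 60.1 and 51.2 CPM in wild type (log2 change -1.05, SE 0.08), and TGG4 fell by 0.79 (SE 0.06). TGG1 and TGG2, the shoot myrosinases of myrosin and guard cells, rose by 0.24 and 0.13 on the log2 scale (SE 0.07 and 0.05), but TGG1 was lower with quantile normalization (-0.11, not called). Its call was also lost with library totals, in limma without an intensity trend and without wild type library 3 (0.20). TGG2 lost its call with quantile normalization (0.06), library totals (0.04) and limma without an intensity trend, and without any 1 library other than prp8a-14 library 5 (0.09 to 0.14). ESP and NSP1, which steer the products towards nitriles, fell by 1.23 and 0.68 on the log2 scale (SE 0.24 and 0.06). ESP was low, with a mean of 0.855 CPM in prp8a-14 and 1.99 CPM in wild type and 37 reads in its lowest library. NSP1 had means of 188 CPM in prp8a-14 and 302 CPM in wild type. In a jasmonate list of 15 genes 3 rose and 3 fell, a share near the 35.2% called over all genes. VSP1 and VSP2, jasmonate-responsive storage proteins, fell by 2.61 and 1.44 on the log2 scale (SE 0.13 and 0.16), JAZ1 rose by 0.46 (SE 0.12, call lost in limma without an intensity trend) and the receptor COI1 was not called.

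Markers of cell types moved between the genotypes beside these genes, and in whole seedlings fewer cells of a type and less RNA per cell cannot be told apart. Of 18 root markers 13 fell and 2 rose, with a median log2 change of -0.63 and no marker with a library at 0. Over all genes 17.3% were called lower and 17.9% higher, the shares to set beside each marker count here. In limma without an intensity trend 11 were called lower, and 10 were without wild type library 2 or 3 or prp8a-14 library 4. EXPA7 and PIN2, counted as lower, had overlapping groups. The 18 root markers summed to 408 to 436 CPM in prp8a-14 and 358 to 405 CPM in wild type, because IRT1, the iron transporter, rose by 1.12 (SE 0.07) and made up much of the sum. CASP1, a marker of the root endodermis, fell by 0.74 (SE 0.07), and CASP2 to CASP5 fell as well. SCR, also a gene of the endodermis, went the other way and rose by 0.25 (SE 0.04). Of 8 markers of myrosin and guard cells 5 rose and none fell, with summed levels of 1382 to 1587 CPM in prp8a-14 and 1175 to 1282 CPM in wild type. Most of that sum is TGG1, which was lower with quantile normalization, and 2 of the 8 were called higher with library totals and 3 in limma without an intensity trend or without wild type library 3. Of 6 leaf mesophyll markers 5 rose, with sums of 28262 to 31594 CPM in prp8a-14 and 20757 to 21842 CPM in wild type, though RBCS1A among them was lower with quantile normalization (-0.03). Of 8 seed markers 6 rose, from low levels: 10.1 to 20.8 CPM summed in prp8a-14 and 3.91 to 7.85 CPM in wild type, and 2 of the 8 had a library at 0. In limma without an intensity trend 2 of them were called higher, and 3 were, with SESA4 lower, without prp8a-14 library 4. Leaving out wild type library 1 or 3 or prp8a-14 library 5 or 6 left 4 called higher. Of 7 flower markers only SEP3 was measured, at 0.550 to 0.941 CPM in prp8a-14 and 1.17 to 1.55 CPM in wild type. The part of these cell types in the lectin and glucosidase changes was not tested.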

How the data were processed

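Poly-A RNA of 3 prp8a-14 and 3 wild type libraries was sequenced. Tools named in the submitters' processing notes, without role or order, include STAR 2.5.1a, Salmon 0.8.2 and featureCounts 1.4.6-p5. The deposited table holds log2 values per library: log2 CPM with 0.5 added to each count, at library sizes scaled by the authors (100% gave whole counts within 0.1). Its 20079 lines hold 19807 genes, and 272 repeats were dropped. There are 3 further sample columns that no label of the series names, and these were left out. Counts totalled 49126331 to 63069817 per library. The scaled library sizes ran from 47243377 to 61950428, and at these sizes 3 counts equal 0.0484 to 0.0635 CPM. Replicates differed beyond sampling noise (chi-square per degree of freedom 8.01 to 15.8). P-values set the difference between genotypes against the spread between libraries of a genotype. What that spread covers is not known, since the labels do not say how plants were pooled.

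All genes entered a single limma fit (version 3.58.1, R 4.3.3, eBayes with an intensity trend, two-sided, Benjamini-Hochberg) on the log2 values as deposited. The fit was tried on simulated counts with the same spread for all genes and changes planted only in well-covered genes. That trial cannot speak for genes with few reads. The members, the lists and the alternatives were chosen with earlier results of these data known. Values in every library are given for the 10 largest called changes per family with a mean of at least 1 CPM and the 6 highest wild type levels; other genes shown so, or named beyond the first few of a list, were chosen after their values were seen. Coding sequences, domains (HMMER 3.4), identities (BLAST 2.17.0) and gene order came from RefSeq TAIR10.1, matched by locus.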

Additional observations from a re-analysis of the deposited data

How the results depend on the processing

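Quantile normalization, library totals, a floor of 5 CPM on the mean, limma without trend, pseudocounts of 1 and 0.1 CPM, voom weights and each library left out were tried, and no called change of a family gene turned round. Library totals moved the median log2 change to -0.15 for lectins and -0.30 for BGLU genes, against -0.09 over all genes; the BGLU median was -0.13 with the 5 CPM floor. With libraries left out, the lectin median ran from -0.17 to -0.0114 and the BGLU median from -0.24 to -0.11. With quantile normalization the sign turned for NAI2 (-0.18), TGG1 (-0.11) and RBCS1A (-0.0257), each called with that scaling or in the main fit. Signs of genes called in neither turned too, among them BGLU21 (-0.0145) and BGLU26 (-0.0766). The cause was not tested. A pseudocount of 1 CPM brought low genes nearer 0, as it must: JAL19 to -0.70, JAL36 to 0.88, BGLU45 to -0.92, BGLU17 to -0.43, BGLU30 to -0.73 and BGLU24 to -0.50. The calls of BGLU17, BGLU22 and JAL3 were lost in 5, 1 and 3 settings, and BGLU15, BGLU25, BGLU41, BGLU46, JAL34 and JAL5 gained one in 1, 2, 1, 5, 2 and 2. No paired analysis was possible because the genotypes share no replicate number. Depth limits BGLU30, BGLU24, JAL19 and JAL18 most, with 14, 21, 21 and 32 reads in their lowest libraries.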
